A study of Mus musculus with 6 samples.

Results

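The troponin genes are the 8 genes of the troponin complex in the deposited count table, taken by symbol from its 55286 gene rows: Tnnt1, Tnnt2 and Tnnt3 for troponin T, Tnni1, Tnni2 and Tnni3 for troponin I, and Tnnc1 and Tnnc2 for troponin C. They were followed in 6 mouse RNA-seq libraries from a study of conversion of fibroblasts into muscle. The groups were mouse embryonic fibroblasts (MEF), muscle, and cells obtained by direct reprogramming (transdifferentiated cells), with 2 libraries each. The labels give no genotype, strain, age, treatment or time for any group. Nor do they state what drove the conversion, where the muscle came from or whether replicates were separate cultures or animals, so p-values measure only the spread between these libraries, which may be technical. Each library held 16817033 to 24584951 counted reads, single-end and 75 bases long, from polyadenylated RNA. Levels are CPM, a gene's reads scaled to the library total, with TMM factors that bring libraries to a common composition, given as the mean ± SD of 2 libraries.

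Troponin is the calcium switch of striated muscle. Troponin C binds calcium, troponin I holds back the interaction of actin and myosin until calcium arrives, and troponin T ties the complex to tropomyosin on the thin filament. Vertebrates carry separate genes for the slow skeletal (Tnnt1, Tnni1), fast skeletal (Tnnt3, Tnni2, Tnnc2) and cardiac (Tnnt2, Tnni3) isoforms, and Tnnc1 serves both slow skeletal and cardiac muscle. Tnnt2 and Tnni1 are also made in embryonic skeletal muscle, and Tnni1 in the embryonic heart, before the adult isoforms take over.

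Most of these genes sit in pairs of a troponin I and a troponin T gene. On mm10, Tnni1 (chromosome 1, 135779434 to 135810989, plus strand) and Tnnt2 (chromosome 1, 135836354 to 135852260, plus) flank Lad1. Tnni2 (chromosome 7, 142441808 to 142444410, plus) and Tnnt3 (chromosome 7, 142498836 to 142516009, plus) flank Lsp1. Tnni3 (chromosome 7, 4518305 to 4524229, minus) ends 1923 bases before the start of Tnnt1 (chromosome 7, 4504570 to 4516382, minus). Tnnc1 (chromosome 14, 31208312 to 31211729, plus) lies inside an intron of Nisch, and Tnnc2 (chromosome 2, 164777161 to 164779967, minus) overlaps Ube2c.

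A comparison of isoforms needs reads that can be told apart. Coding sequences of isoforms of the same subunit were 68.5% to 70.7% identical. For each subunit, a gap-free stretch of read length (75 bases) is shown from the GENCODE release M21 transcripts. It is the coding stretch of the first isoform listed with the most matches to the other isoforms together. Capitals mark the positions where the isoforms differ.
Tnnt1: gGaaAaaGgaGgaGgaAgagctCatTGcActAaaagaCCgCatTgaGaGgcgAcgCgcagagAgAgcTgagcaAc
Tnnt2: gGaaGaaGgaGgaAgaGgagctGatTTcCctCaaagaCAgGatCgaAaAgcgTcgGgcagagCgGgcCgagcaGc
Tnnt3: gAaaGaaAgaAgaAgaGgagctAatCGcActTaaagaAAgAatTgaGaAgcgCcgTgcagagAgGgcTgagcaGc
Tnni1: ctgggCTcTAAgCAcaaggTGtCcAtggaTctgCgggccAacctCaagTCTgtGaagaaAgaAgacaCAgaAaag
Tnni2: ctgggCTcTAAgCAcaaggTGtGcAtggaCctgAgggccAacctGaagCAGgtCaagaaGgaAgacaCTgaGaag
Tnni3: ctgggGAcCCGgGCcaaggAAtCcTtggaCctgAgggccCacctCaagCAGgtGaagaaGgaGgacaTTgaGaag
Tnnc1: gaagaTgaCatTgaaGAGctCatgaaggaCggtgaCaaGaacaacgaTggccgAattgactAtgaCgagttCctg
Tnnc2: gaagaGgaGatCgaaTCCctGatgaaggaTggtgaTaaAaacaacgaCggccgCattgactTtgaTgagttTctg
In these stretches, troponin T isoforms differed at 16 or more of 75 bases in each pair. Troponin I isoforms differed at 11 or more and the troponin C genes at 15. Single pairs of T or I isoforms were not searched for a more alike stretch. No 75-base stretch of the coding transcripts of 7 of the 8 genes occurred in a transcript of another gene. Tnnc2 was the exception: 254 of its 626 such stretches also occurred, on the opposite strand, in transcripts of Ube2c, which encodes a ubiquitin-conjugating enzyme of mitosis.

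Troponin genes were low in MEF, at under 8 CPM in both libraries, and high in both other groups except for cardiac Tnni3. Of the 8 genes, 7 rose in transdifferentiated cells over MEF, where 27.3% of the 17400 tested genes were called, 15.9% higher and 11.3% lower. The same 7 rose in muscle over MEF, where 35.6% were called, 17.3% higher and 18.3% lower. All 8 had passed the filter on low counts. The median log2 fold change of the 8 genes was 8.74 in transdifferentiated cells and 9.28 in muscle, beside 0.07 and 0.00 over all tested genes. These comparisons share the MEF libraries. The plot of levels by library shows the separation.

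**Figure D1:**
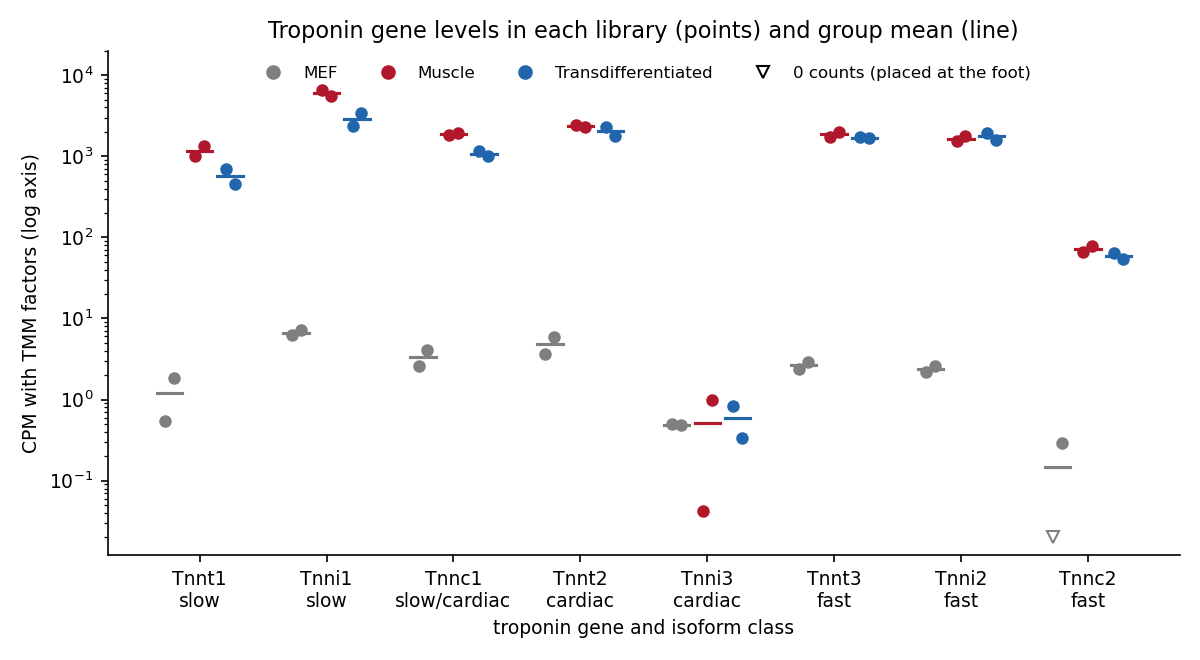
CPM with TMM factors (log axis) of the 8 troponin genes in each of 2 MEF, 2 muscle and 2 transdifferentiated libraries (points), with the group mean (lines) and the isoform class under each gene. The 7 genes other than Tnni3 sit far above MEF in both muscle and transdifferentiated cells, while Tnni3 stays under 1 CPM in all 6 libraries, and the open triangle marks 0 counts of Tnnc2 in the first MEF library.

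The 3 genes of slow fibres rose in both groups and were lower in transdifferentiated cells than in muscle in every library. Tnni1 was at 6.17 and 7.24 CPM in the MEF libraries, 6596 and 5546 CPM in the muscle libraries and 2394 and 3445 CPM in the transdifferentiated libraries. The groups did not overlap, and both transdifferentiated libraries lay between MEF and muscle. Tnni1 rose 435-fold over MEF in transdifferentiated cells (log2 fold change 8.76 ± 0.37, SE; edgeR adjusted p = 1.57e-06) and 904-fold higher in muscle (9.82 ± 0.39; edgeR adjusted p = 9.44e-07). Slow troponin T, Tnnt1, was at 0.551 and 1.85 CPM in MEF, 1010.0 and 1327 CPM in muscle and 700 and 454 CPM in transdifferentiated cells, with no overlap between the 3 groups. The 10 and 38 reads of Tnnt1 in the MEF libraries set the size of its rise: the log2 fold change of transdifferentiated cells over MEF was 8.88 ± 0.58 (edgeR adjusted p = 1.23e-05), 8.28 without MEF replicate 1 and 10.01 without MEF replicate 2. In muscle over MEF it was 9.90 ± 0.60 (edgeR adjusted p = 6.52e-06), with 9.30 and 11.03 without those libraries. Tnnc1, the troponin C of slow and cardiac muscle, was at 2.59 and 4.08 CPM in MEF, 1840.2 and 1939 CPM in muscle and 1154 and 998 CPM in transdifferentiated cells. Here too the transdifferentiated libraries lay between the others, 321-fold above MEF (8.33 ± 0.36; edgeR adjusted p = 1.74e-06).

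The fast isoforms of troponin T and I rose in both groups, and their muscle and transdifferentiated libraries overlapped. Tnnt3 was at 2.37 and 2.91 CPM in MEF, 1722 and 2002 CPM in muscle and 1724 and 1658 CPM in transdifferentiated cells. Tnni2 was at 2.20 and 2.57 CPM in MEF, 1539 and 1765 CPM in muscle and 1960.0 and 1571 CPM in transdifferentiated cells. At each gene, both groups lay far above MEF. In the reported fit, Tnni2 had the highest fold rise of the 8 genes over MEF in transdifferentiated cells. It rose 736-fold (log2 fold change 9.52 ± 0.35, edgeR adjusted p = 1.41e-06), followed by Tnnt3 with 638-fold (9.32 ± 0.34, edgeR adjusted p = 1.41e-06). This rank was not stable: without MEF replicate 2, slow Tnnt1 (10.01) lay above Tnni2 (9.64). In muscle over MEF, slow Tnnt1 (9.90 ± 0.60) had the highest rise.

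Fast troponin C, Tnnc2, was counted far less than the other fast genes: 0 and 0.291 CPM in MEF (0 and 6 reads), 66.4 and 78.6 CPM in muscle and 64.0 and 54.0 CPM in transdifferentiated cells. Its log2 fold change over MEF was 8.53 ± 0.63 in the transdifferentiated libraries (edgeR adjusted p = 2.48e-05) and 8.82 ± 0.64 in the muscle libraries (edgeR adjusted p = 1.61e-05). Both sizes rest on 6 reads in MEF replicate 2. Without MEF replicate 1 they were 7.63 and 7.92. Without MEF replicate 2 no MEF read was left, and the fitted values (13.15 and 13.45) are then no bound on the fold.

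Tnnc2 also shares most of its exon bases with Ube2c, which limits how its level can be read. Of the 800 exon bases of Tnnc2, 592 (74%) lie under a single exon of Ube2c on the opposite strand (chromosome 2, 164777190 to 164778822), and 108 bases of the 700-base coding transcript are free of it. Genes lying wholly under such an overlap were almost never counted: of 426 genes whose exons lie wholly under exons of the opposite strand, 425 had 0 counts in every library, while 50.7% of 41952 genes with no such overlap had counts. Ube2c itself was at 80.4 ± 20.6 CPM in MEF, 9.49 ± 0.0928 CPM in muscle and 27.6 ± 0.447 CPM in transdifferentiated cells, opposite in order to Tnnc2 in MEF and muscle. Its part in the Tnnc2 count was not tested. The other 7 troponin genes have no exon base under an exon of the opposite strand, and Tnni3 shares some with Dnaaf3 on its own strand.

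**Figure D2:**
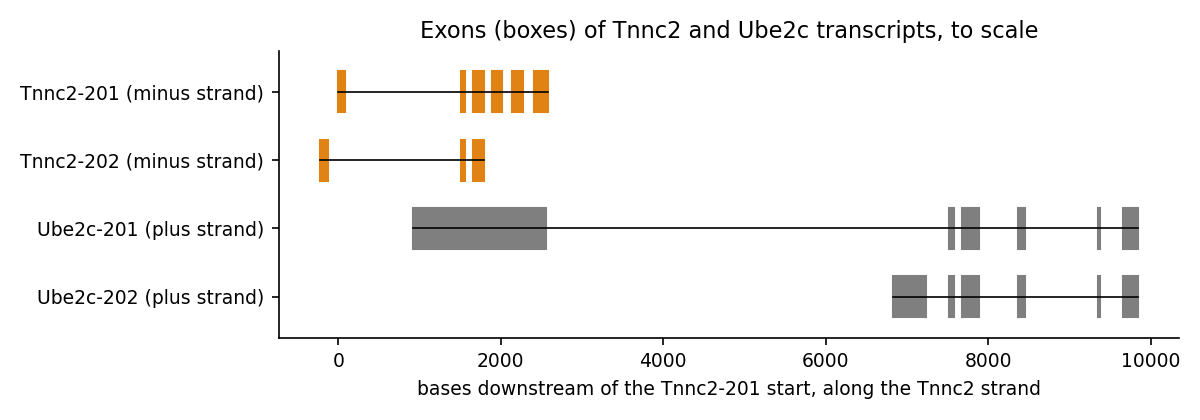
Exons (boxes) of the annotated transcripts of Tnnc2 and Ube2c, to scale, in bases downstream of the start of the coding transcript of Tnnc2, along the Tnnc2 strand. A single exon of Ube2c covers all but the first exon and the far end of that transcript, leaving 108 of 700 bases free.

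The cardiac isoforms parted. Cardiac troponin T, Tnnt2, was at 3.69 and 5.88 CPM in MEF, 2413 and 2302 CPM in muscle and 2282 and 1766 CPM in transdifferentiated cells, 422-fold above MEF in the last (log2 fold change 8.72 ± 0.39; edgeR adjusted p = 1.90e-06). Cardiac troponin I, Tnni3, had 9 and 10 reads in the MEF libraries, 1 and 16 in the muscle libraries and 15 and 7 in the transdifferentiated libraries, which is 0.0426 to 0.974 CPM. Its groups overlapped, and no comparison passed the test (edgeR adjusted p = 0.888 in transdifferentiated cells over MEF, 0.985 in muscle over MEF and 0.942 in transdifferentiated cells over muscle), with a sign that changed with the library left out. A library's count of 0 allows up to 3 reads, or 0.128 to 0.183 CPM, so muscle replicate 1 was below the level that a count of 0 allows. Tnnt1, whose start lies 1923 bases beyond the end of Tnni3 on the same strand, rose 472-fold in the same cells.

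Markers of heart muscle were split. Of 14 heart muscle markers, 10 passed the filter and 3 of these rose in transdifferentiated cells over MEF, Myh6 and Kcnj3 among them, while Tbx5 and Hand2, transcription factors of the developing heart, fell and 5 were neither. In muscle over MEF 3 were higher and 7 lower, but 3 were lower without MEF replicate 1, 3 without muscle replicate 1 and 4 without muscle replicate 2. In transdifferentiated cells over muscle 4 were higher (Nppa, Nppb, Tbx5 and Hand2), 0 lower and 6 neither, with a median log2 fold change of 1.5, beside 0.03 over all tested genes. Another marker (1) was lower without either MEF library or without transdifferentiated replicate 2, and by DESeq2, and Nppa lost its call without either muscle library (edgeR adjusted p = 0.143 and 0.125). The whole list summed to 33.0 to 40.7 CPM in MEF, 192 to 195 CPM in muscle and 82.6 to 120 CPM in transdifferentiated cells. The light chain gene Myl7, the natriuretic peptide gene Nppa and the heart factor gene Nkx2-5 were at 0 in both muscle libraries. Among the abundant markers, the cardiac myosin Myh6 was at 28.6 ± 4.23 CPM in muscle and 26.2 ± 3.02 CPM in transdifferentiated cells. Hand2 was at 10.8 ± 1.11 CPM in MEF, 0.104 CPM in muscle and 3.62 ± 0.603 CPM in transdifferentiated cells. Hand2 lost its call in transdifferentiated cells over MEF without MEF replicate 1 (edgeR adjusted p = 0.0524) and without transdifferentiated replicate 2 (0.0612). Kcnj3 lost its call in several leave-one-out fits (edgeR adjusted p up to 0.122).

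Levels of different genes can be set side by side per kb of transcript. In muscle, per kb of the longest coding transcript, Tnni1 was at 5279 ± 646 CPM, Tnnc1 at 2621 ± 96.7 CPM, Tnni2 at 2151 ± 208 CPM, Tnnt2 at 1965 ± 65.2 CPM, Tnnt3 at 1726 ± 183 CPM and Tnnt1 at 1104 ± 212 CPM. Of neighbours in this order, Tnni2 and Tnnt2 overlapped between libraries and the others did not. In transdifferentiated cells the order on the same scale was Tnni1 (2539 ± 646 CPM per kb), Tnni2 (2299 ± 359), Tnnt2 (1687 ± 304), Tnnt3 (1568 ± 43.3), Tnnc1 (1493 ± 152) and Tnnt1 (545 ± 164). Tnni1 and Tnni2 overlapped there, as did Tnnt2 with Tnnt3 and Tnnt3 with Tnnc1. Tnnc1 thus stood next to Tnni1 in muscle and below both fast and cardiac troponin T in transdifferentiated cells by its mean. Tnnc2 (104 ± 12.3 in muscle and 84.3 ± 10.1 in transdifferentiated cells) and Tnni3 (0.557 ± 0.722 and 0.648 ± 0.391) came lowest on this scale. If reads in the bases shared with Ube2c were not counted, which was not tested, the Tnnc2 level is a lower limit. Per kb of its 108 free bases Tnnc2 was at 671 ± 79.7 CPM in muscle, below Tnnt1, and at 546 ± 65.8 CPM in transdifferentiated cells, where its libraries overlapped those of Tnnt1. In MEF the order was Tnni1 (5.83 ± 0.657 CPM per kb), Tnnc1 (4.62 ± 1.46), Tnnt2 (3.99 ± 1.29), Tnni2 (3.11 ± 0.342), Tnnt3 (2.45 ± 0.358), Tnnt1 (1.13 ± 0.865), Tnni3 (0.538 ± 0.00772) and Tnnc2 (0.208 ± 0.294, or 1.35 ± 1.91 per kb of its free bases).

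Between transdifferentiated cells and muscle, the 3 slow genes lay lower in transdifferentiated cells, and 1 of them passed the test. Tnni1 was the only troponin gene called. It was 2.08-fold lower than in muscle (log2 difference -1.06 ± 0.26; edgeR adjusted p = 0.0376), in a comparison where 10% of tested genes were called, 7.58% higher and 2.46% lower. Tnnt1 was 2.03-fold lower (-1.02 ± 0.40; edgeR adjusted p = 0.179) and Tnnc1 1.76-fold lower (-0.81 ± 0.26; edgeR adjusted p = 0.0961), and neither passed the test. All 3 genes were lower in both transdifferentiated libraries than in either muscle library, and so were cardiac Tnnt2 and fast Tnnc2. With 2 libraries against 2, the exact two-sided permutation test cannot give such a separation a p under 0.333. The share of all tested genes that separated in this way was not counted. Of the other troponin genes, Tnnt2 had a log2 fold change of -0.22 ± 0.27 and Tnnc2 of -0.30 ± 0.39, Tnnt3 of -0.14 ± 0.23 and Tnni2 of 0.10 ± 0.24, with edgeR adjusted p between 0.770 and 0.903. The median of the 8 genes was -0.26, beside 0.03 over all tested genes.

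The calls among the slow genes were unstable with 2 libraries a group. Tnni1 lost its call without muscle replicate 1 (edgeR adjusted p = 0.216), without muscle replicate 2 (0.121) and without transdifferentiated replicate 1 (0.233). Tnnt1 and Tnnc1 were called in the fit of only the 4 libraries compared (edgeR adjusted p = 0.0359 and 0.0482), without MEF replicate 1 (0.0257 and 0.0454) and by DESeq2 (adjusted p = 0.0489 and 0.0463). Tnnt1 was also called without MEF replicate 2 (0.0292) and without the filter on low counts (0.00898). The sign was lower in transdifferentiated cells for all 3 genes in each of the 11 alternative fits.

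**Figure D3:**
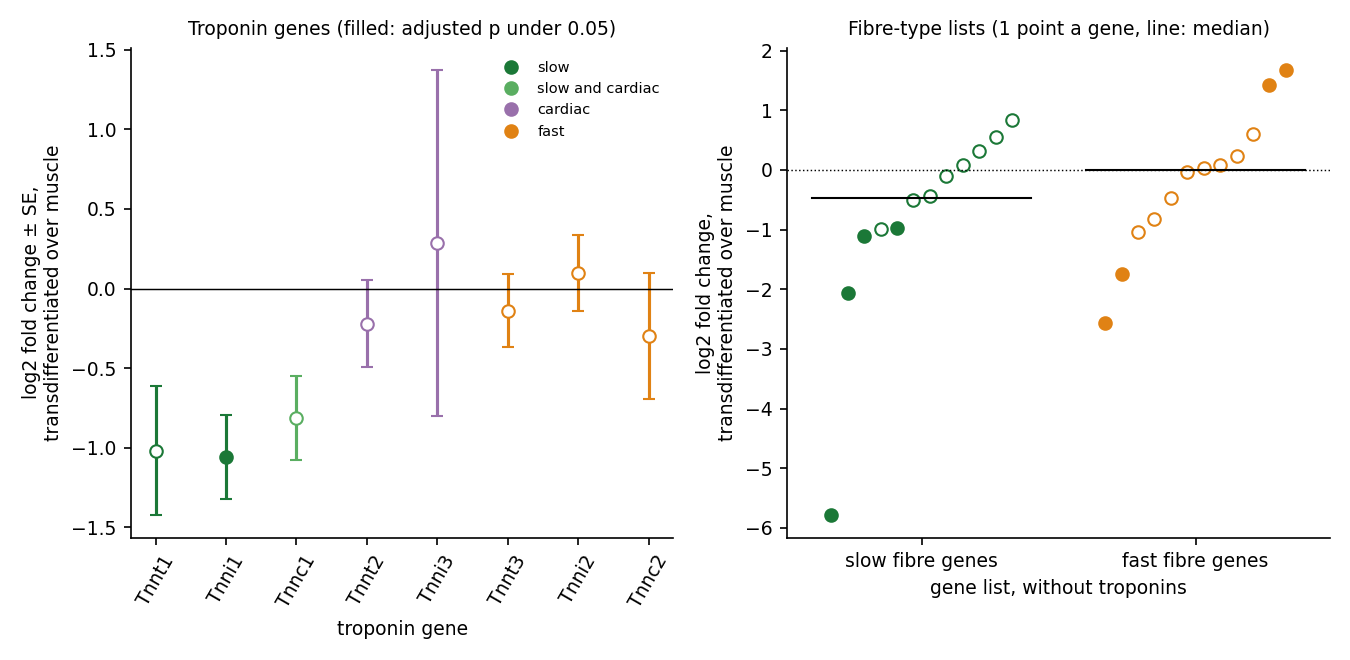
Left, log2 fold change ± SE (edgeR) of each troponin gene in transdifferentiated cells over muscle, coloured by isoform class and filled where the adjusted p was under 0.05. Right, the same quantity for each of 12 slow and 12 fast fibre genes without troponins, with the list median (lines at -0.47 and 0.00). Tnnt1, Tnni1 and Tnnc1 lie at -1.02, -1.06 and -0.81, with Tnni1 alone filled. Fast Tnnt3, Tnni2 and Tnnc2 lie at -0.14, 0.10 and -0.30.

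Within each subunit, the balance of slow to fast reads was lower in transdifferentiated cells than in muscle. The log2 ratio of Tnni1 to Tnni2 reads was 0.29 and 1.13 in the transdifferentiated libraries and 2.1 and 1.65 in the muscle libraries, a mean ratio 2.24-fold lower. The log2 ratio of Tnnt1 to Tnnt3 was -1.30 and -1.87 against -0.77 and -0.59, 1.87-fold lower, and that of Tnnc1 to Tnnc2 was 4.17 and 4.21 against 4.79 and 4.63, 1.43-fold lower. None of the 3 ratios overlapped between the groups, and the ratios were not tested. The ratio of cardiac Tnnt2 to fast Tnnt3 overlapped (0.40 and 0.09 against 0.49 and 0.20). A ratio of isoforms in the same library does not depend on library size, and the length of a gene cancels between groups.

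As shares of a subunit's reads per kb of exon length, the fast isoform was higher in both transdifferentiated libraries than in either muscle library for T, I and C. Fast Tnni2 made up 66.3% and 52.3% of troponin I in transdifferentiated cells and 35.9% and 43.3% in muscle, a difference of 19.65 percentage points between the means. Slow Tnni1 made up the rest, 40.7% ± 9.91 in transdifferentiated cells and 60.3% ± 5.24 in muscle, since Tnni3 held 0.0144% ± 0.00885 and 0.00904% ± 0.0118. Fast Tnnt3 made up 64.0% and 70.7% of troponin T in transdifferentiated cells and 58.6% and 58.4% in muscle, a difference of 8.87 points. Fast Tnnc2 made up 6.74% and 6.57% of troponin C in transdifferentiated cells and 4.48% and 5.01% in muscle, a difference of 1.91 points. With 2 libraries against 2, the exact two-sided permutation test cannot give a p under 0.333, which all 3 differences gave (0.75 adjusted over 9 comparisons of shares).

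The size of each share depends on the length taken for each gene. All exons of Tnnt2 add up to 7752 bases because the annotation holds transcripts with retained introns, while its longest coding transcript has 1200. Per kb of the longest coding transcript, cardiac Tnnt2 had the highest mean share of troponin T, with 41.1% ± 4.19 in muscle, 44.3% ± 2.04 in transdifferentiated cells and 52.8% ± 0.481 in MEF, in place of 15.2% ± 2.15, 16.3% ± 1.36 and 21.7% ± 0.451 over all exons. On the coding-transcript scale fast Tnnt3 held 36.0% ± 1.35 of troponin T in muscle and 41.6% ± 4.46 in transdifferentiated cells, where it led in replicate 2 (44.7% against 42.8% for Tnnt2), and slow Tnnt1 22.9% ± 2.84 and 14.2% ± 2.41. Slow Tnni1 held 70.9% ± 4.51 of troponin I in muscle and 52.2% ± 10.3 in transdifferentiated cells, so that Tnni2 led troponin I in 1 of the 2 transdifferentiated libraries (55.1% and 40.6%). Scaled by the 108 bases of Tnnc2 that are free of Ube2c, the fast share of troponin C was 20.4% ± 1.33 in muscle and 26.8% ± 0.362 in transdifferentiated cells. On all 5 scales, the fast share was higher in both transdifferentiated libraries than in either muscle library for T, I and C. For C this order could not change with the scale, because a gene's length is the same in every library. The same nearly holds for I, where Tnni3 took almost no reads in these groups. The coding-transcript and overlap-free scales give the same shares for T and I. Which isoform led changed with the scale for T and I.

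**Figure D4:**
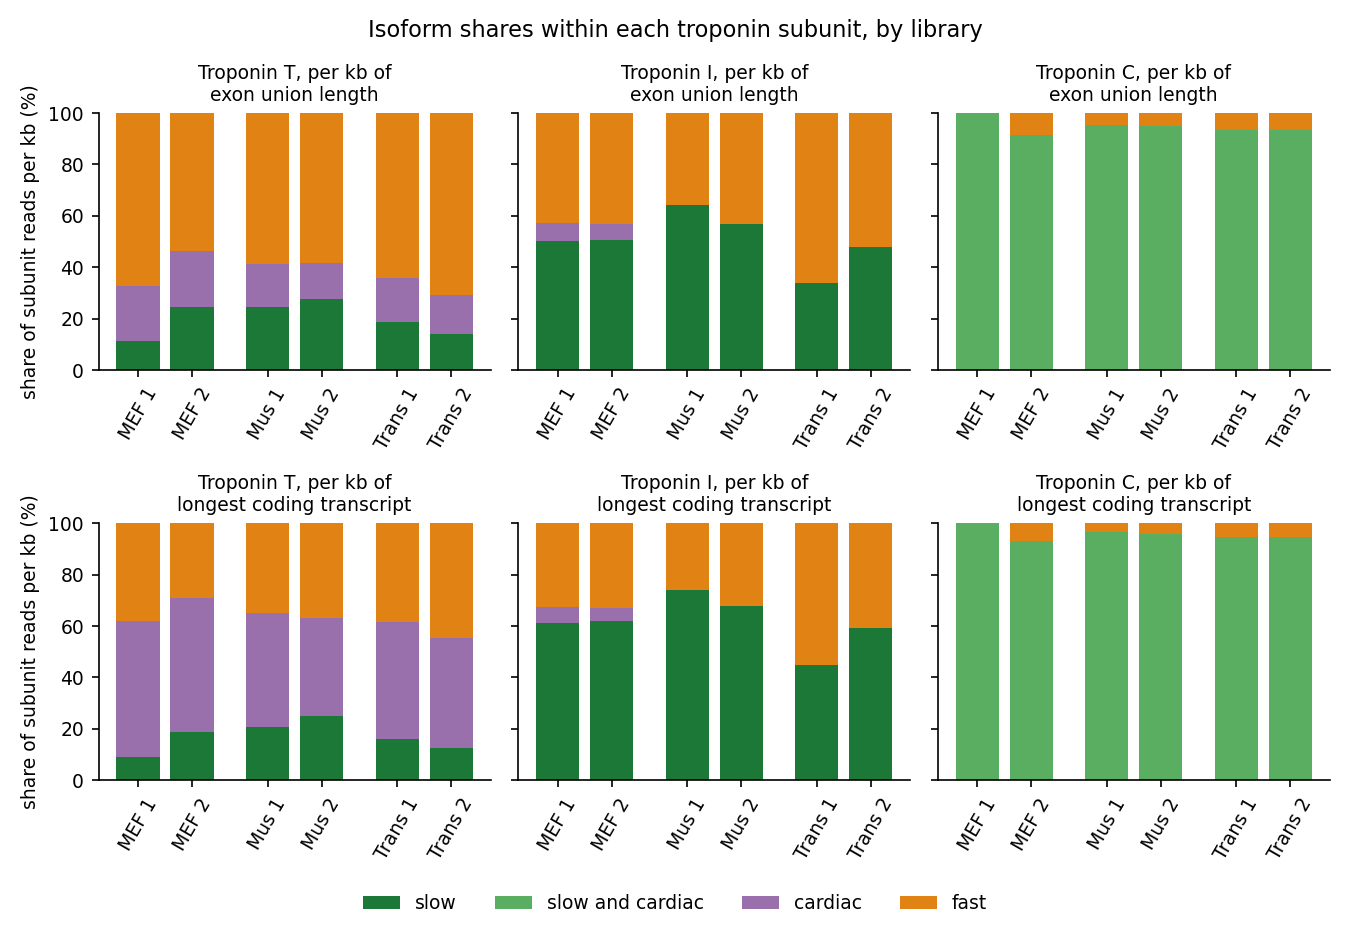
Share of each isoform in the reads per kb of its subunit, in percent, for each library (Mus, muscle; Trans, transdifferentiated), with all exons of a gene as its length (upper row) and its longest coding transcript (lower row). The fast share (orange) is higher in both transdifferentiated libraries than in either muscle library in all 6 panels, and Tnnt2 (purple) takes at most 22.1% of troponin T in any library over all exons and at least 38.2% with the coding length.

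In MEF the shares rest on few reads. The 2 MEF libraries held 120 and 219 reads of troponin T, 161 and 212 of troponin I and 47 and 90 of troponin C. Tnnt3 took 35.8% of the troponin T reads in MEF replicate 1 (27.8% to 44.7%, 95% Wilson interval, counting error only) and 27.4% in replicate 2 (21.9% to 33.7%), with no length applied. Tnni3 took 5.59% (2.97% to 10.3%) and 4.72% (2.58% to 8.46%) of their troponin I reads, beside at most 0.0194% in any library of the other groups. Tnnc2 took 0 of 47 reads and 6.67% of 90 (3.09% to 13.8%).

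The summed level of each subunit was lower in transdifferentiated cells than in muscle. Per kb of the longest coding transcript, troponin I summed to 4635 and 5041 CPM in transdifferentiated cells and 7740.0 and 7122 CPM in muscle. Troponin T summed to 4160.4 and 3437 CPM against 4561 and 5027 CPM, and troponin C to 1692 and 1462 CPM against 2647 and 2801 CPM. None overlapped, and no test of the sums was made. In bulk RNA, fewer cells of a type and less RNA per cell cannot be told apart.

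Markers of other cells moved in part between transdifferentiated cells and muscle, where 7.58% of all tested genes were higher and 2.46% lower. Relative to muscle, 11 of 11 tested macrophage markers were higher in transdifferentiated cells, and the list of 12 summed to 801 to 929 CPM in transdifferentiated cells, 2.07 to 4.99 CPM in muscle and 82.5 to 83.3 CPM in MEF. Ptprc, Adgre1 and Tyrobp were at 0 in both muscle libraries. The most abundant were the lysozyme gene Lyz2 (368 ± 102 CPM in transdifferentiated cells and 0.551 ± 0.607 in muscle), the complement gene C1qb (141 ± 6.68 and 0.299 ± 0.422) and the Fc receptor chain gene Fcer1g (61.7 ± 8.64 and 0.180 ± 0.168). Of 12 fibroblast markers 6 were higher (3 without muscle replicate 2) and 0 lower in transdifferentiated cells than in muscle, with sums of 20260.2 to 25352 CPM against 12995 to 21948 CPM and 32600.3 to 48890 CPM in MEF. The collagens Col1a1 and Col1a2 and fibronectin Fn1, their most abundant members, were not called. Of 8 smooth muscle markers 3 were higher (Myh11, Mylk and Myocd) and 5 neither, but Mylk (edgeR adjusted p = 0.202, 0.285 and 0.206) and Myocd (0.121, 0.179 and 0.0526) lost their calls without muscle replicate 1, muscle replicate 2 and transdifferentiated replicate 2 in turn. Of 7 tested endothelial markers Kdr and Emcn were higher and 5 neither, with Kdr not called without muscle replicate 2 (edgeR adjusted p = 0.119) or transdifferentiated replicate 2 (0.0517), and Emcn not without muscle replicate 1 (0.0552). Of 10 skeletal muscle markers, Neb and Mb were lower and 8 neither (0 lower without muscle replicate 2, where Mb had an edgeR adjusted p of 0.0601, 1 without transdifferentiated replicate 2, 4 without MEF replicate 1 and 4 by DESeq2), with sums of 30997 to 48266 CPM in transdifferentiated cells, 47257 to 50675 CPM in muscle and 373 to 567 CPM in MEF. The smooth muscle list summed to 289 to 409 CPM in transdifferentiated cells, 266 to 387 CPM in muscle and 1790 to 2535 CPM in MEF. The endothelial list of 8 summed to 9.61 to 16.6, 3.10 to 6.52 and 21.7 to 23.1 CPM in turn. The part of these cell types in the troponin levels was not tested.

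The other genes of slow and fast fibres were split. In transdifferentiated cells over muscle, 7.58% of all tested genes were higher and 2.46% lower. Of 12 slow fibre genes without troponins, 4 were lower in transdifferentiated cells than in muscle, 0 higher and 8 neither, with a median log2 fold change of -0.47. The 4, named after their values were seen, were the slow myosin Myh7 (-1.10 ± 0.23; edgeR adjusted p = 0.0172), the slow light chain Myl2 (-5.79 ± 0.42; edgeR adjusted p = 0.000177), phospholamban Pln (-2.06 ± 0.51; edgeR adjusted p = 0.0406) and tropomyosin Tpm3 (-0.98 ± 0.24; edgeR adjusted p = 0.0355). Myl2 was at 127 ± 1.46 CPM in muscle and 2.29 ± 0.499 CPM in transdifferentiated cells, and kept its call in all alternative fits. The other 3 lost theirs in the fits without muscle replicate 1 or muscle replicate 2 (edgeR adjusted p from 0.0818 to 0.331), among others, so that 1 slow gene was lower without each of muscle replicate 1, muscle replicate 2 and transdifferentiated replicate 1, and 2 without transdifferentiated replicate 2. The 3 most abundant slow genes were not called: the calcium pump Atp2a2 (-0.51 ± 0.23), cardiac calsequestrin Casq2 (-0.44 ± 0.33) and slow myosin-binding protein Mybpc1 (0.55 ± 0.33), with edgeR adjusted p of 0.247, 0.558 and 0.420.

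Of 12 fast fibre genes, 2 were higher and 2 lower in transdifferentiated cells than in muscle and 8 neither, with a median of 0.00. Fast myosin Myh2 (1.43 ± 0.32; edgeR adjusted p = 0.0249) and the light chain kinase Mylk2 (1.67 ± 0.39; edgeR adjusted p = 0.0277) were higher. Fast calsequestrin Casq1 (-2.57 ± 0.25; edgeR adjusted p = 0.000404) and fast myosin-binding protein Mybpc2 (-1.75 ± 0.30; edgeR adjusted p = 0.00678) were lower. The Casq1 call held in each alternative fit, while without muscle replicate 2 the edgeR adjusted p was 0.236 for Myh2, 0.218 for Mylk2 and 0.0619 for Mybpc2. The most abundant fast genes, the light chains Mylpf (0.04 ± 0.27) and Myl1 (-0.47 ± 0.27) and the calcium pump Atp2a1 (-1.03 ± 0.32), were not called (edgeR adjusted p = 0.970, 0.392 and 0.087). Atp2a1 was called lower in 6 alternative fits: only the 4 libraries compared (edgeR adjusted p = 0.0342), no filter on low counts (0.00645), without either MEF library (0.0254 and 0.0288), without transdifferentiated replicate 2 (0.0272) and by DESeq2 (0.0292). Lower fast genes then numbered 4 without either MEF library and by DESeq2, and 1 without muscle replicate 2, and higher ones 1 without muscle replicate 1 and 0 without muscle replicate 2 or transdifferentiated replicate 2. Against MEF, all 12 fast genes rose in transdifferentiated cells and in muscle. Of the 12 slow genes 11 rose in each, while Tpm3 was lower in transdifferentiated cells (-0.98, edgeR adjusted p = 0.0167; 0.0619 and 0.0596 without either transdifferentiated library) and was at 283 ± 58.3 CPM in muscle and 284 ± 6.94 CPM in MEF, not called.

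Embryonic and neonatal fibre genes were abundant in both muscle and transdifferentiated cells. All 7 rose over MEF in each, with medians of 9.28 in transdifferentiated cells and 9.62 in muscle. A rise was called for 15.9% and 17.3% of all tested genes in turn. In transdifferentiated cells over muscle, 7.58% of them were higher and 2.46% lower. Cardiac actin Actc1 was at 12669 ± 1446 CPM in muscle and 12821 ± 2147 CPM in transdifferentiated cells, embryonic myosin Myh3 at 6862 ± 621 and 4721 ± 270 CPM, and embryonic light chain Myl4 at 3763 ± 133 and 3091 ± 229 CPM. Between the groups 6 of the 7 were neither, and the acetylcholine receptor gene Chrna1 was lower in transdifferentiated cells (-1.23 ± 0.24; edgeR adjusted p = 0.0135; 0.0808 to 0.0908 without muscle replicate 1, muscle replicate 2 or transdifferentiated replicate 1).

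The partners of troponin on the thin filament were split. Of 14 partner genes, 9 rose over MEF in transdifferentiated cells and 9 in muscle. A rise was called for 15.9% and 17.3% of all tested genes in turn, and a fall for 11.3% and 18.3%. In transdifferentiated cells Acta2, Tpm3 and Tpm4 fell and Tpm1 and Tmod3 were neither, and in muscle Acta2, Tpm4 and Tmod3 fell and Tpm1 and Tpm3 were neither. Skeletal actin Acta1 was at 291 ± 103 CPM in MEF, 26184 ± 4235 CPM in muscle and 25574 ± 9474 CPM in transdifferentiated cells. Smooth muscle actin Acta2 went the other way, with 10606 ± 2289 CPM in MEF, 3299.6 ± 1017 CPM in muscle and 2517 ± 553 CPM in transdifferentiated cells. Tropomyosin Tpm2 rose (2.1 in transdifferentiated cells and 2.52 in muscle; edgeR adjusted p = 0.000279 and 7.48e-05), Tpm4 fell (-1.96 and -2.28; edgeR adjusted p = 0.00162 and 0.000532), and Tpm1, which binds troponin T in fast and cardiac fibres, was not called (0.05 and 0.31; edgeR adjusted p = 0.896 and 0.325). Tmod3, which caps actin filaments, was lower in muscle (-1.22; edgeR adjusted p = 0.0125; 0.0806 and 0.0851 without muscle replicate 1 and 2, and 0.0639 without MEF replicate 2) and not called in transdifferentiated cells (-0.79; edgeR adjusted p = 0.0827). Against muscle, Tpm3, the giant thin-filament protein gene Neb and Nrap were lower in transdifferentiated cells, 0 were higher and 11 neither. That comparison called 2.46% of all tested genes lower and 7.58% higher. Without muscle replicate 2 none of the 14 was lower (0), and 1 was without each of muscle replicate 1, transdifferentiated replicate 1 and transdifferentiated replicate 2. Neb was at 4387 ± 1345 CPM in muscle and 1413 ± 41.4 CPM in transdifferentiated cells (-1.63 ± 0.36; edgeR adjusted p = 0.0214; 0.157 without muscle replicate 2).

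Genes that release and take up the calcium that troponin C binds were higher than in MEF throughout. All 19 rose in transdifferentiated cells (median 8.21) and in muscle (median 9.27), where 15.9% and 17.3% of all tested genes rose in turn. In transdifferentiated cells over muscle, 7.58% of all tested genes were higher and 2.46% lower. Their most abundant members, Atp2a1, Atp2a2 and the sarcoplasmic reticulum protein gene Srl, were not called between the groups (edgeR adjusted p = 0.087, 0.247 and 0.187), with Atp2a1 called lower in the 6 alternative fits given above. Against muscle 4 were lower in transdifferentiated cells and 15 neither, with 7 lower without either MEF library and by DESeq2, and 2 without either muscle library or without transdifferentiated replicate 1. The 4, named after their values were seen, were Casq1 and Pln, given above, the ryanodine receptor Ryr3 (-2.38 ± 0.38; edgeR adjusted p = 0.00479) and the histidine-rich calcium-binding protein Hrc (-0.93 ± 0.23; edgeR adjusted p = 0.0327). Ryr3 kept its call in each alternative fit and Hrc did not (up to 0.224, without muscle replicate 1).

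The start regions of 2 troponin genes show the kinds of short motif that muscle regulators bind. MyoD-family proteins bind the E-box CANNTG, and TEAD proteins bind the MCAT motif CATTCC. The 250 bases before the start of Tnnt2 (the first of its RefSeq windows) and Tnnc1, shown because they hold both motifs, are given 5′ to 3′ on the gene's strand from RefSeq on GRCm38.p6 (the assembly of mm10), with both motifs in capitals on either strand. The window of Tnnt2 is chr1:135836084-135836333 (plus) and that of Tnnc1 chr14:31208062-31208311 (plus).
Tnnt2: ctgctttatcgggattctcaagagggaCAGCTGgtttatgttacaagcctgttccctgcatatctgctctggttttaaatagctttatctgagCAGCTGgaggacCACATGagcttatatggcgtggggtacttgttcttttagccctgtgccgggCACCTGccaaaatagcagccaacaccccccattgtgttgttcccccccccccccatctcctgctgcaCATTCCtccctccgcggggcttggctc
Tnnc1: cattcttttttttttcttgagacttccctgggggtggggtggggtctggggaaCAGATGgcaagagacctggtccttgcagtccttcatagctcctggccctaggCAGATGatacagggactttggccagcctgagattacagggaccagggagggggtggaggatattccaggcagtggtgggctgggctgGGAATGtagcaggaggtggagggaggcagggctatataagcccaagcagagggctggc
The Tnnt2 window holds 4 matches to CANNTG, 2 of them CAGCTG, and 1 to CATTCC. A second RefSeq window of Tnnt2 (chr1:135836739-135836988, plus), not printed, holds 1 match to CANNTG and 0 to CAGCTG or CATTCC. The Tnnc1 window holds 2 matches to CANNTG and 1 to CATTCC, which reads GGAATG on the printed strand. RefSeq windows were matched for 6 of the 8 genes (8 windows, Tnni2 and Tnnt3 not among them). CANNTG occurs in each of the 8, the window of Tnni3 included, and in 66.2% of 32851 promoter windows of that length. CAGCTG, which is also a CANNTG, occurs in 13% of all windows and CATTCC in 12.6%. A match describes letters and is no evidence of binding.

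Regulators of troponin genes rose in part. Over MEF, a rise was called for 15.9% of all tested genes in transdifferentiated cells and 17.3% in muscle. In transdifferentiated cells over muscle, 7.58% of them were higher and 2.46% lower. Of 22, 11 rose in transdifferentiated cells over MEF, 0 fell (2 without MEF replicate 2) and 11 were neither, while 15 were higher in muscle and Prdm1 lower (edgeR adjusted p = 0.0439, a call lost by DESeq2 and in several other fits). Myog, which drives terminal muscle differentiation, was at 1.41 ± 0.271 CPM in MEF, 1047 ± 77.9 CPM in muscle and 733 ± 187 CPM in transdifferentiated cells. Its partner Mef2c was at 11.9 ± 3.32, 1078 ± 146 and 902 ± 80.4 CPM, and Tead1 at 578 ± 27.7, 729 ± 116 and 483 ± 91.2 CPM, not called in transdifferentiated cells over MEF (edgeR adjusted p = 0.489). Between transdifferentiated cells and muscle, 2 were higher (1 without either muscle library), 3 lower (1 without muscle replicate 2) and 17 neither. Vgll2, a muscle cofactor of TEAD proteins, was higher in transdifferentiated cells (2.04 ± 0.45; edgeR adjusted p = 0.0212; 0.108 without muscle replicate 2), as was Prdm1, a repressor with a role in slow fibre formation in fish (3.70 ± 0.68; edgeR adjusted p = 0.00949; 0.0887 without muscle replicate 1). The myogenic factor Myf5 was lower (-7.33 ± 0.46; edgeR adjusted p = 0.000101), at 34.8 ± 5.41 CPM in muscle and 0.213 ± 0.0960 CPM in transdifferentiated cells. Ppargc1a, a coactivator linked to slow oxidative fibres (-2.26 ± 0.44; edgeR adjusted p = 0.0124; 0.112 without muscle replicate 2), was lower as well.

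Some neighbours of the troponin genes rose with them. Within 25000 bases lie 17 protein-coding genes, of which 15 were tested. Over MEF, 6 rose, 1 fell and 8 were neither in transdifferentiated cells, and 6 rose, 2 fell and 7 were neither in muscle. Among the 17400 genes tested, a rise was called for 15.9% and 17.3% in turn. Whether neighbours rose more often than other genes was not tested. Lad1, between Tnni1 and Tnnt2, rose by 2.78 ± 0.55 on the log2 scale in transdifferentiated cells and 3.08 ± 0.55 in muscle (edgeR adjusted p = 0.00624 and 0.00273). Pkp1, 19135 bases beyond Tnnt2 on the opposite strand, was at 0.732 ± 0.211 CPM in MEF, 20.6 ± 0.504 CPM in muscle and 11.7 ± 4.80 CPM in transdifferentiated cells. Lsp1, between Tnni2 and Tnnt3, was at 51.2 ± 7.02, 150 ± 20.6 and 114 ± 2.44 CPM, and Syt8, 1412 bases before Tnni2, at 0.214 ± 0.165, 9.48 ± 1.44 and 7.07 ± 1.65 CPM. These 4 kept their calls in both comparisons in each alternative fit. Syt5, near Tnni3 and Tnnt1, was called higher in both groups and Sema3g, near Tnnc1, in transdifferentiated cells, at levels of 1.43 CPM or less and with calls lost without 1 library in at least 4 fits each. Phlda3, near Tnni1, rose over MEF in muscle (edgeR adjusted p = 0.0135; up to 0.0965, without muscle replicate 1) and was lower in transdifferentiated cells than in muscle (-1.20 ± 0.24; edgeR adjusted p = 0.0132; 0.0829 to 0.107 without either muscle library or without transdifferentiated replicate 1), as Tnni1 was. Ube2c, which overlaps Tnnc2, fell over MEF in both and was higher in transdifferentiated cells than in muscle (1.54 ± 0.28; edgeR adjusted p = 0.00887; 0.0883 and 0.0923 without either muscle library). Ppp1r12c, between Eps8l1 and Tnnt1, was lower in muscle (-1.33 ± 0.28; edgeR adjusted p = 0.00627; 0.0798 without muscle replicate 2).

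The genes with the most similar profiles to the troponins included other genes of the contractile apparatus, but not for every troponin. Likeness was the root mean square difference in centred log2 CPM over the 6 libraries, among 13698 tested protein-coding genes, with the troponins left out. Tnni2 and Tnnt3 shared Mylpf, the fast light chain, and Klhl41, a sarcomere assembly factor, among their 3 nearest genes, at differences of 0.08 to 0.16. Tnni1 lay nearest to the slow myosin Myh7 (0.14), then Atp2a1 (0.18) and Mybph (0.20). Tnnt1 had Casq2, Myh1 and Myh3 (0.31 to 0.34), Tnnt2 had Lmod3, Trim55 and Itgb1bp2 (0.11 to 0.23), Tnnc1 had Srl, Hrc and Lmod3 (0.18 to 0.23), and Tnnc2 had Bex1 and Hephl1 among its 3 nearest (0.25 and 0.27). Tnni3, with 1 to 16 reads a library, had no gene nearer than Ppp4r4 (0.41). Among the troponins themselves the smallest difference was between Tnnt3 and Tnni2 (0.13), the 2 fast genes of the same locus. The points are 6 libraries in 3 groups, so these differences mostly describe the step from MEF to the other groups.

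The authors' deposited table of their own comparison lists 7 of the 8 troponin genes and not Tnni3. Its headers do not name the groups compared. The log2 fold changes had the sign of MEF over muscle in all 2645 listed genes tested here, and were not set against transdifferentiated cells. Those of the troponin genes ran from -8.58 for Tnnt2 to -9.61 for Tnnt1 in the authors' deposited table.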

How the data were processed

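RNA was measured in 6 libraries, grouped by their titles. The authors deposited whole-number counts per gene symbol, with no normalization. The submitters' processing notes name DESeq2 1.26.0, featureCounts 1.6.2, HISAT2 2.1.0, Trim Galore 0.6.0 and mm10, without roles. No source used here states the annotation or strand setting of the counting. Per the file headers, a second deposited table gives the authors' log2 fold changes with their standard errors and p-values, and a mean signal over unnamed libraries that was not used. Its counts matched the count table.

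Genes passing filterByExpr by group (17400 of 55286 symbols) were scaled by TMM and fitted in edgeR 4.0.16 (R 4.3.3) in a single quasi-likelihood model (robust, legacy dispersion) with all 6 libraries and group as its term, leaving 3 residual degrees of freedom and a biological coefficient of variation of 27.3%. P-values were Benjamini-Hochberg adjusted over all tested genes, and genes were called at an adjusted p under 0.05. The script was tested on simulated data. Isoform shares are reads per kb of each gene's exon length over the sum for its subunit in a library. Annotation and transcripts are GENCODE M21 (53289 symbols matched), and Wilson intervals are at 95% and cover counting error only. The alternatives were RLE factors, no low-count filter, DESeq2 1.42.0, only the 4 libraries compared, a replicate block, each library left out, and other gene lengths, of which the coding-transcript and overlap-free lengths were chosen after seeing the data.

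The members and the gene lists (thin filament, calcium, fast, slow and embryonic fibres, heart, regulators, fibroblast, smooth muscle, macrophage, endothelial and skeletal muscle markers) were chosen with earlier results of these data known. Named genes are the troponins, the 3 most abundant members of each list and up to 3 that go against it, the 3 nearest profiles of each troponin, and protein-coding neighbours within 25000 bases; others are marked. A few genes that this rule names are not reported here.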

Additional observations from a re-analysis of the deposited data

How the results depend on the processing

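The count of 7 troponin genes higher than in MEF was 7 in transdifferentiated cells and 7 in muscle under every alternative run. In transdifferentiated cells over muscle, 1 troponin gene was called in the reported fit, 2 without the low-count filter, 3 with only the 4 libraries compared, 3 by DESeq2 and 0 to 3 without each replicate in turn. With the replicate number as a replicate block it was 0, with Tnni1 at an edgeR adjusted p of 0.0809, and 265 genes were lower in place of 428. The block changed no other troponin call. The labels do not say whether replicate numbers pair the samples. Deviations of same-numbered libraries from their group means had correlations of 0.314 (MEF and muscle), -0.529 (MEF and transdifferentiated) and -0.291 (muscle and transdifferentiated). With 2 libraries a group, these values cannot decide whether samples were paired. Without the low-count filter 670 genes were lower in that comparison.

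Leaving out each replicate in turn gave 140 to 605 lower and 589 to 1616 higher genes in transdifferentiated cells over muscle, 1280 to 1926 lower in transdifferentiated cells over MEF, and 1980 to 3223 higher and 1778 to 3445 lower in muscle over MEF. It also turned the sign of uncalled values. Tnni3 ran from -0.52 to 0.75 in transdifferentiated cells over MEF, from -3.34 to 0.98 in muscle over MEF (0.011 by DESeq2) and from -0.73 to 3.59 in transdifferentiated cells over muscle, where Tnni2 ran from -0.069 to 0.24. The values of single replicates set these ranges, and the cause was not tested.

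Gene length moved the fast shares by construction. In MEF, muscle and transdifferentiated cells in turn, Tnnt3 held 50.5%, 48.8% and 57.9% per kb of the longest transcript, 31.6%, 34.5% and 39.7% with no length, and 33.4%, 36.0% and 41.6% per kb of coding transcript, with or without bases shared with other genes. Tnni2 held 24.9%, 21.5% and 38.2% with no length, 32.8%, 29.1% and 47.8% per kb of coding transcript on both scales, and 42.2% in MEF per kb of the longest transcript. Tnnc2 held 3.80% in muscle and 5.34% in transdifferentiated cells per kb of the longest or coding transcript, 3.69% and 5.19% with no length, and 16.1%, 20.4% and 26.8% over overlap-free bases. The difference of Tnnt3 between muscle and MEF turned from -1.94 points to 2.90 with no length and 2.54 per kb of coding transcript on both scales, and without each replicate it ran from -8.82 to 4.94. That of Tnni2 ran from -7.22 to 0.175, and those of Tnnc2 from -3.76 to 4.75 in muscle and from -1.85 to 6.65 in transdifferentiated cells over MEF. The fast shares in MEF rest on 47 to 219 reads a library, which limits them.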
